A study of Mus musculus with 4 samples.

Results

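Cycling luminal progenitors, the dividing cells of the secretory lineage of the mouse mammary epithelium, numbered 390 of 11279 luminal progenitors and of 36884 cell barcodes in all. They were chosen by measured values. Each barcode's counts of unique molecular identifiers (UMIs, which tag single captured transcripts) were scaled to 10000 and put on a log2 scale after adding 1, each gene was standardised over all barcodes, and the mean was taken over 3 panels of 8 genes: basal (Krt5, Krt14, Krt17, Acta2, Myh11, Cnn1, Oxtr, Trp63), progenitor (Elf5, Kit, Aldh1a3, Csn3, Ltf, Wfdc18, Cd14, Trf) and hormone-sensing (Prlr, Esr1, Pgr, Areg, Cited1, Foxa1, Fxyd2, Ly6a). A progenitor had a progenitor score over 0.3 that lay at least 0.5 above both other scores. It was called cycling when it held at least 4 UMIs of Mki67, Top2a, Birc5, Ube2c and Cdk1 together. The remaining 10889 progenitors served as the comparison.

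The study compared mammary gland cells of control and Zeb1 MSKO mice of strain C57BL/B6, sorted by flow cytometry and profiled with the 10x Chromium 3′ v2 chemistry. There was 1 library per genotype and age: control at 8 weeks, Zeb1 MSKO at 8 weeks, control at 9 weeks and Zeb1 MSKO at 9 weeks, and sets of 4 values below follow that order. The labels do not expand MSKO, and they name neither the promoter of a deleting enzyme, the deleted part of Zeb1, the number of mice per library nor any further allele. Which surface markers guided the sort is not stated there. Replicates of a genotype also differ in age, so the spread between them holds both, and nothing in the labels says whether 1 or several animals went into a library. The libraries held 7627 to 9790 barcodes with median totals of 6376 to 10529.5 UMIs. Zeb1, whose product represses epithelial genes, gave 3, 0, 0 and 0 UMIs in the cycling progenitors and 33, 27, 4 and 31 in the other progenitors. These are sums over single cells, and a sum alone does not tell fewer expressing cells from less RNA per cell. Shares of cells with a UMI and mean UMIs per cell are given below for some genes. With the deleted part of the gene not stated, 3′ counts of Zeb1 check neither the deletion nor the labels here.

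Luminal progenitors are the hormone receptor-poor luminal cells that express Kit and the transcription factor Elf5 and that give rise to the milk-secreting alveolar cells. Dividing cells copy their DNA in S phase with the help of the MCM helicase, the clamp loader and ribonucleotide reductase, whose genes are driven by E2F factors. They then enter G2 and mitosis with the cyclin B kinase Cdk1, the spindle kinesins and the chromosomal passenger complex. The genes of these proteins are driven by B-MYB and FOXM1. Of the genes of the cycling rule, Mki67 encodes a coat protein of mitotic chromosomes, Top2a the topoisomerase that untangles them, Birc5 the passenger protein survivin, and Ube2c an enzyme that marks cyclin B for destruction.

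The 4 markers of the label separated into the proliferation genes and the lineage genes. They are Mki67 (ENSMUSG00000031004, chromosome 7, 135689784 to 135716361), Top2a (ENSMUSG00000020914, chromosome 11, 98992943 to 99024189), Csn3 (ENSMUSG00000001622, chromosome 5, 87925579 to 87932665) and Wfdc18 (ENSMUSG00000000983, chromosome 11, 83709015 to 83711348), with positions on mm10. Values are CPM, a gene's share of the UMIs summed over the cells of a library and state, scaled by the TMM method. Mki67 stood at 136, 96.8, 243 and 190.1 CPM in cycling progenitors and at 1.39, 0.976, 0.654 and 1.08 CPM in the others. Top2a stood at 245, 211, 259 and 262 CPM against 3.47, 2.51, 0.610 and 1.93 CPM. Both belong to the rule, so these gaps are a description. Csn3, the milk protein kappa-casein that luminal progenitors express before pregnancy, stood at 4016, 1859.7, 6117 and 5316 CPM in cycling progenitors and at 4443, 3044, 5997 and 5433 CPM in the others. Wfdc18, a secreted protein of the whey acidic protein family, stood at 6547, 9712, 4861 and 10410.3 CPM against 7792, 10545, 5367 and 9869 CPM. Csn3 and Wfdc18 belong to the progenitor panel on which both states were chosen, so these levels are a description too. Csn3 was detected in 98.9%, 100%, 97.1% and 100% of cycling progenitors, against 20.7% to 31.8% of basal and 40.3% to 50% of hormone-sensing cells, which should hold little of it. After every cell was thinned to 2500 UMIs the shares were 92.9% to 97.1% of cycling progenitors and 9.14% to 11.7% of basal cells. The median depths were 15992 to 20451 UMIs in cycling progenitors and 5637 to 8065 in basal cells.

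The gate was clear of the bulk of the progenitors. No UMI of the 5 gate genes was found in 10154 progenitors, 1 UMI in 595, 2 in 105 and 3 in 35, while 23 held 4, 15 held 5 and 319 held at least 8. Cycling progenitors held a median of 21 gate UMIs (interquartile range 10 to 37) and at most 105. Among barcodes past the gate, 5 missed the progenitor margin by up to 0.1 and 6 passed it by as little, and 9 lay just under the progenitor score limit and 11 just over it. Of all 880 barcodes past the gate, 123 were basal and 101 hormone-sensing by the same panels, and 266 fell into no class. The progenitor score itself was lower in cycling progenitors, with medians of 0.754, 0.851, 0.850 and 0.891 against 1.02, 1.01, 1.08 and 1.11. No barcode sequence was shared by cycling progenitors of different libraries, although 95 to 151 barcode sequences recurred in each pair of libraries over all cells.

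Cycling progenitors held more UMIs than the others. Their median totals were 18690, 20451, 17611 and 15992 UMIs against 8181.5, 7677.5, 8107 and 7516, and they held a median of 4061, 4370.5, 3845 and 3773 detected genes against 2291, 2342, 2293.5 and 2191. The gate counts UMIs, so it favours deep cells, and its part in this gap was not tested. A doublet score called 33 of 390 cycling progenitors (8.46%) and 424 of 10889 others (3.89%). The 14 cycling progenitors of the 8-week Zeb1 MSKO library stood apart, with 4 called doublets. Of these 14 cells, 3 held at least 5 UMIs of hair follicle keratins, and all 3 were called doublets, while no cycling progenitor of the other 3 libraries held as many. The summed level of 8 hair follicle and skin genes was 504.5 CPM in those 14 cells and 15.6 to 21.1 CPM in the cycling progenitors of the other libraries. Krt14, the main basal keratin, was found in 92.9% of the 14 cells and 28.6% of them after thinning, against 64.7% and 29.8% of the other progenitors of that library. The 10 basal markers summed to 118, 551, 533 and 258 CPM in cycling progenitors and 201, 657, 263 and 300 CPM in the others, with 1 of 10 at 0 in the 9-week control. Endothelial markers (8 genes) summed to 13.7, 85.1, 1.62 and 3.21 CPM with 1, 3, 7 and 6 at 0, and fibroblast markers (8 genes) to 97.5, 167, 13.0 and 6.42 CPM with 0, 2, 5 and 5 at 0. Of 7 lymphocyte markers, 6 were at 0 in the 8-week Zeb1 MSKO library and 7 in each 9-week library. Results that rest on the 8-week Zeb1 MSKO library are therefore given also without called doublets (together with cells over 10% mitochondrial UMIs) or without that library.

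The share of progenitors that were cycling was highest in the 8-week control. It was 7.01% there (270 of 3852, Wilson 95% interval 6.25 to 7.86), 0.855% in the 8-week Zeb1 MSKO (14 of 1638, 0.510 to 1.43), 1.34% in the 9-week control (35 of 2621, 0.962 to 1.85) and 2.24% in the 9-week Zeb1 MSKO (71 of 3168, 1.78 to 2.82). These intervals cover counting error only. The 8-week control lay above the other 3 libraries, and the genotypes overlapped. The means were 4.17% ± 4.01 in control and 1.55% ± 0.980 in Zeb1 MSKO (SD, n = 2), a difference of -2.62 percentage points (two-sided exact permutation test, p = 0.667, where 0.33 is the smallest p of this design). Without the 8-week control the difference was 0.213 points in the opposite direction. The order of the libraries was the same after thinning every cell to 2500 UMIs, at 2.86%, 0.183%, 0.610% and 1.04%.

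Progenitors were more often past the gate than the other epithelial classes of the same library. The basal shares were 1.95%, 0.679%, 0.569% and 1.81%, and the hormone-sensing shares 0.543%, 0.850%, 0.329% and 1.95%. The progenitor share was higher in 4 of 4 libraries against either class, by 1.61 and 1.94 percentage points on average, and both two-sided exact permutation tests over paired libraries gave p = 0.13, the smallest possible. After thinning, the excess over basal cells was 0.844 points and held in 3 of 4 libraries (exact p = 0.25). Against hormone-sensing cells the 8-week Zeb1 MSKO library differed by almost nothing (0.855% against 0.850%). There the order turned without doublets (0.641% against 0.695%), and the excess then held in 3 of 4 libraries (1.89 points, exact p = 0.25). It also held in 3 of 4 with a gate of 2 UMIs (2.22 points, exact p = 0.25) and with stricter progenitor limits (1.70 points, exact p = 0.375). Between genotypes, hormone-sensing cells differed by 0.962 points in the other direction (exact permutation p = 0.33) and basal cells by -0.0182 points (exact permutation p = 1).

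**Figure D1:**
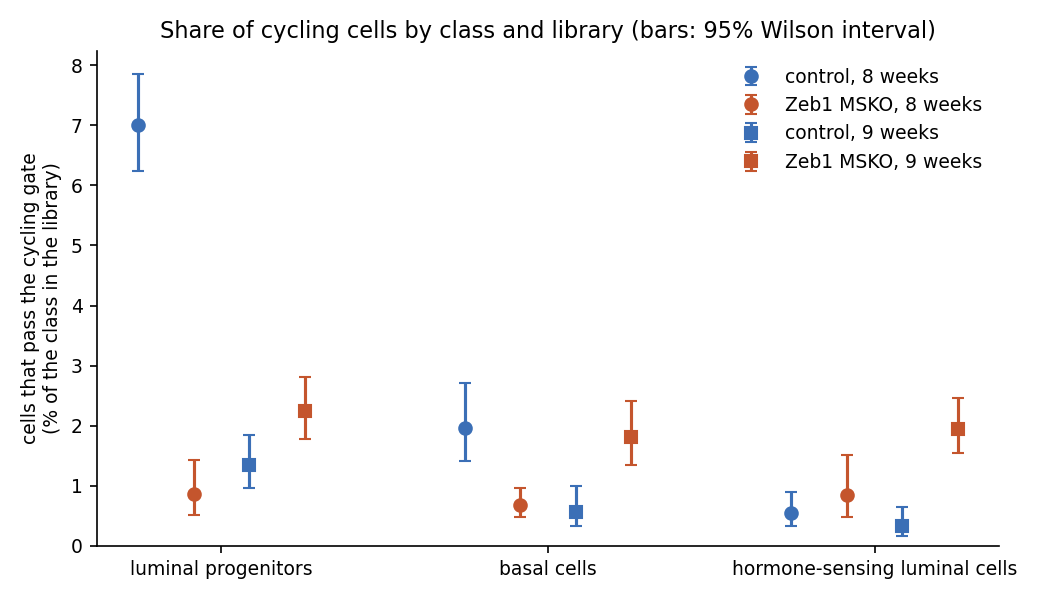
Share of cells past the cycling gate (vertical axis, % of the class in the library) for luminal progenitors, basal cells and hormone-sensing luminal cells, with points for libraries and bars for Wilson 95% intervals. The 8-week control progenitors sit at 7.01%, above every other point, and the remaining progenitor shares run from 0.855% to 2.24%.

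Cycling progenitors varied widely in their balance of S phase to G2 and mitosis transcripts. Of the UMIs that a cell held for 36 S phase and 52 G2 and mitosis genes together, the S phase share had a median of 31.0% over the 390 cells and ran from 1.52% to 75.7%. The 5 gate genes belong to neither list. The lists differ in size, so the level of this share does not tell the phase: per 10000 UMIs the cycling progenitors held 31.2, 26.9, 16.3 and 23.0 S phase and 60.9, 57.0, 69.7 and 54.9 G2 and mitosis UMIs, and the other progenitors 4.27, 3.81, 3.06 and 3.65 and 8.29, 8.11, 6.44 and 6.37. The medians by library were 35.1%, 35.7%, 20.2% and 27.3%. Cells with under 25% S phase transcripts numbered 98 of 270, 4 of 14, 23 of 35 and 31 of 71. The 9-week control was the library with the lowest S phase share, and 65.7% of its cycling progenitors fell below 25%. Since the 5 gate genes peak late in the cycle, the rule can leave out early S phase cells, and how many it left out was not tested.

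The cyclin E genes, used for neither the gate nor the split by phase, followed it in the 8-week control, the library with the most cells in each range. Ccne1, the cyclin E that starts S phase, stood at 94.6 CPM in its 88 cells with an S phase share of at least 50%, at 29.4 CPM in the 84 cells between, and at 4.73 CPM in the 98 cells under 25%. The 9-week Zeb1 MSKO library gave 36.7, 22.0 and 0 CPM in 18, 22 and 31 cells. In the 8-week Zeb1 MSKO library Ccne1 stood at 52.0, 15.7 and 0 CPM in 3, 7 and 4 cells. The 9-week control did not follow, with 0, 0 and 2.56 CPM in 3, 9 and 23 cells and 1 UMI in all. Ccne2, the other cyclin E, went from 42.2 through 30.6 to 6.31 CPM in the 8-week control. It stood at 13.0, 15.7 and 10.7 CPM in the 8-week Zeb1 MSKO library and at 40.1, 0 and 10.2 CPM in the 9-week control. The 9-week Zeb1 MSKO library gave 9.17, 6.28 and 1.85 CPM of Ccne2. Ccnd1, the cyclin D that links growth signals to the cycle, stood at 382, 212 and 224 CPM in the 8-week control. Csn3, a panel gene that the rule required to be high, stood at 3739, 4073 and 4603 CPM over the same ranges, and in the 8-week Zeb1 MSKO library, with 3, 7 and 4 cells, at 2938, 2516 and 937 CPM. These levels per range are sums over cells of 1 library and are given without a test.

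**Figure D2:**
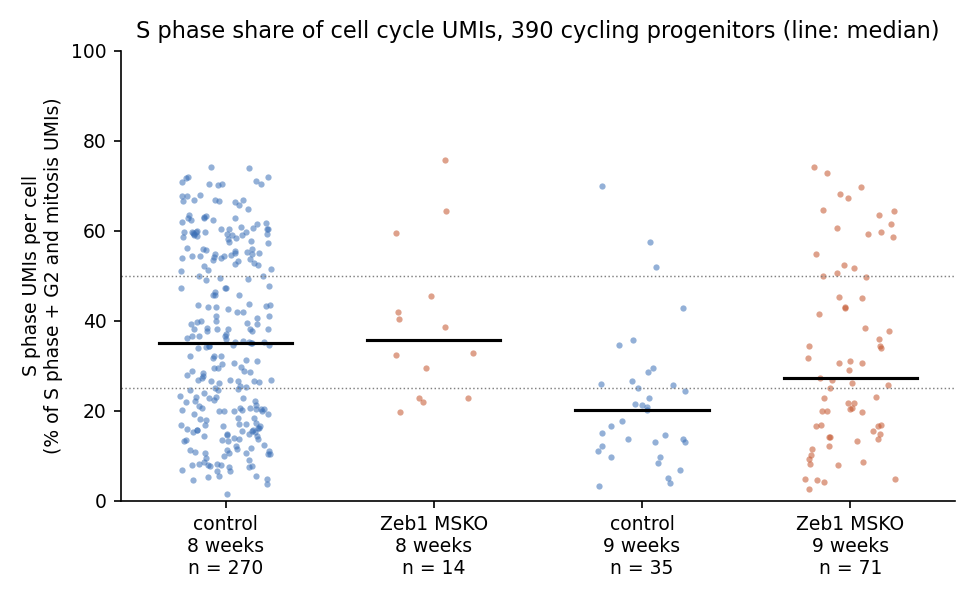
S phase UMIs as a percentage of S phase plus G2 and mitosis UMIs (vertical axis) in each of the 390 cycling progenitors (points) by library, with a line at the median and dotted lines at 25% and 50%. The 9-week control has the lowest median (20.2%), and the 8-week control (35.1%) spreads over the whole range.

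Cycling progenitors differed from the other progenitors of the same library across much of the transcriptome, by an edgeR quasi-likelihood test on summed counts with the library as a block. Of 12316 genes tested, 3541 (28.8%) were called at an adjusted p under 0.05, with 1610 (13.1%) higher and 1931 (15.7%) lower. Regardless of call, 16.0% of the genes were higher and 25.2% lower in each of the 4 libraries. The split turned on scaling: without TMM scaling 2390 were higher and 1054 lower, and between cells of like depth (both states held to the interquartile range of UMIs of the cycling progenitors) 1190 were higher and 1039 lower of 10097. The median over all genes was -0.08 on the log2 scale, and 0.10 without TMM scaling. Leaving out the 8-week control, which holds most of the cells, left 2192 calls. The gate chose the cells on 5 mitotic genes, so the S phase, mitosis, cyclin, chromatin and repair genes below are given as values with no p, and the counts of their calls are a description. CPM measures a gene's share of a cell's UMIs: with the cycling progenitors deeper, 66.0% of all genes had more UMIs per cell in them in all 4 libraries and 0.650% had fewer.

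Genes of G2 and mitosis were far higher in cycling progenitors, and 51 of 52 were called higher (98.1%, against 13.1% of all genes, median log2 difference 5.59). Hmmr, a spindle-assembly protein, had the largest difference of the list, with 45.8, 29.3, 92.4 and 62.6 CPM against 0.238, 0.139, 0 and 0.116 CPM (log2 8.69 ± 0.33 SE). Nusap1, which bundles spindle microtubules, stood at 119, 106, 183 and 109 CPM against 0.680, 0.557, 0.174 and 0.231 CPM (8.25 ± 0.23). In both genes no cycling sum came near a sum of other progenitors. Aurkb, the kinase of the chromosomal passenger complex, differed by 7.36 ± 0.24, Kif11, the kinesin that separates spindle poles, by 7.15 ± 0.30, and Cdca3, a trigger of mitotic entry, by 7.15 ± 0.26. The cyclins Ccna2 (109, 106, 122 and 144 CPM against 0.986, 0.627, 0 and 0.270), Ccnb1 (55.0, 70.4, 84.3 and 75.4 against 0.680, 0.627, 0.261 and 0.386) and Ccnb2 (156, 120.3, 221 and 141 against 3.57, 2.30, 0.915 and 1.16) moved with them. The gate genes Birc5, Ube2c and Cdk1 differed by 7.47, 8.29 and 6.05, which the rule fixes. The exception was Pttg1, securin, which holds sister chromatids together until anaphase: it stood at 33.4, 32.3, 34.1 and 38.5 CPM in cycling progenitors and 56.5, 45.1, 59.8 and 48.4 CPM in the others (-0.62 ± 0.14). Per cell it had more UMIs in cycling progenitors (0.659, 0.786, 0.6 and 0.676 against 0.464, 0.398, 0.531 and 0.406). Between cells of like depth its difference was -0.43 and not called. It was singled out after its values were seen.

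The 10 largest differences outside the rule included 3 genes that are in none of the lists. Ska1, a kinetochore subunit, stood at 40.2, 49.9, 45.4 and 51.3 CPM against 0.476, 0.209, 0.0871 and 0.154 CPM (7.46 ± 0.31). Casc5, the kinetochore scaffold also named Knl1, stood at 36.8, 17.6, 64.9 and 43.3 CPM against 0.510, 0.139, 0.349 and 0.0771 CPM (7.12 ± 0.32). Mxd3, a partner of MAX in the MYC network, stood at 34.4, 32.3, 63.2 and 58.6 CPM against 0.272, 0.209, 0.0436 and 0.154 CPM (7.99 ± 0.33). The naming rule took only genes with 1 direction in every library.

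S phase genes were higher by less than the mitotic genes, with 35 of 36 called higher (97.2%, against 13.1% of all genes, median 2.28). Rrm2, a subunit of ribonucleotide reductase, stood at 98.4, 96.8, 43.8 and 102 CPM against 2.55, 1.81, 0.0871 and 1.16 CPM (5.93 ± 0.24). It was lowest in the 9-week control, the library with the lowest S phase share. Rrm2 is itself counted in that share, so the match is a description. Clspn, the checkpoint adaptor claspin, differed by 5.05 ± 0.27, Tk1, thymidine kinase, by 4.65 ± 0.25 and Cdc6, which loads the MCM helicase, by 4.23 ± 0.39. Among chromatin and tubulin genes 25 of 26 were called higher (96.2%, against 13.1% of all genes, median 2.17). Hist1h2ap, a replication-linked histone H2A gene whose near-identical copies make its count uncertain, stood at 285, 402, 188 and 336 CPM against 3.20, 1.53, 0.654 and 1.23 CPM (7.43 ± 0.20). Hist1h1b, a linker histone, differed by 5.89 ± 0.23 and Asf1b, a histone chaperone, by 4.17 ± 0.24.

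Repair genes of homologous recombination and the Fanconi pathway were higher too, 23 of 28 by call (82.1%, against 13.1% of all genes, median 2.68). Brca1, the breast cancer susceptibility gene, stood at 11.1, 8.80, 6.49 and 19.3 CPM against 0.714, 0.279, 0.131 and 0.848 CPM (4.41 ± 0.41). It was detected in 20.0%, 21.4%, 11.4% and 28.2% of cycling progenitors and in 0.116% to 0.646% of the others. Bard1, its partner, differed by 5.37 ± 0.40, Rad54b, a recombination translocase, by 4.52 ± 0.48, and Fancd2, the central Fanconi protein, by 4.74 ± 0.56. Counts were low, with means of 0.114 to 0.338 UMIs of Brca1 per cycling cell, and the share thinned to 2500 UMIs was 0% to 5.63%.

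Of 28 cyclin, E2F, MYB and RB genes, 17 were called higher (60.7%) and 3 lower (10.7%), against 13.1% and 15.7% of all genes. The median was 1.11. E2f8 and E2f7, the repressive E2Fs, differed by 6.61 ± 0.47 and 5.09 ± 0.57, E2f2, an activating E2F, by 4.95 ± 0.55 and Foxm1, the activator of mitotic genes, by 6.04 ± 0.37. E2f7 was not seen in the 14 cycling cells of the 8-week Zeb1 MSKO library. The G1 cyclins behaved unlike the later ones. Ccne1 stood at 38.7, 17.6, 1.62 and 15.2 CPM against 2.86, 1.53, 0.697 and 1.04 CPM (3.60 ± 0.29), and Ccne2 at 24.2, 11.7, 9.73 and 4.81 CPM against 1.73, 1.67, 0.959 and 1.12 CPM (3.25 ± 0.36). Ccnd1 stood at 258, 158, 201 and 413 CPM in cycling and 293, 213, 202 and 499 CPM in other progenitors (-0.21 ± 0.09), so progenitors outside the gate held it as well. Ccnd3, the other cyclin D expressed here, stood at 102, 49.9, 74.6 and 69.0 CPM against 50.9, 46.1, 58.6 and 49.5 CPM (0.62 ± 0.13). Ccnd2 stood at 0.939, 64.5, 0 and 5.62 CPM against 1.94, 4.88, 1.22 and 3.89 CPM. All 22 UMIs of Ccnd2 in the 8-week Zeb1 MSKO library lay in 2 called doublets, and its difference of 1.24 ± 0.57 became -1.83 between cells of like depth.

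Inhibitors of the cycle split. Of 20 CDK inhibitors and antiproliferative genes, 4 were called higher (20.0%, against 13.1% of all genes) and 8 lower (40.0%, against 15.7%), with a median of -0.45. The INK4 inhibitors of the cyclin D kinases were among the higher ones. Cdkn2d stood at 45.3, 55.7, 92.4 and 61.8 CPM against 7.14, 10.2, 7.15 and 7.06 CPM (2.99 ± 0.17, edgeR adjusted p = 1.15e-12). Cdkn2c stood at 37.9, 35.2, 68.1 and 40.9 CPM against 9.79, 14.5, 23.5 and 10.4 CPM (1.78 ± 0.15, edgeR adjusted p = 1.73e-09). In both genes each library's cycling sum exceeded every sum of other progenitors. The cells were gated on mitotic genes, and the part of the gate in these 2 differences was not tested. Cdkn2a, the INK4a and ARF locus, was near the limit of detection at 0.376, 2.93, 1.62 and 4.81 CPM against 0.306, 0.209, 0.392 and 0.656 CPM (edgeR adjusted p = 0.0398). Among the lower members, Gadd45b, a stress-response gene, stood at 50.5, 109, 27.6 and 23.3 CPM against 181, 182, 73.4 and 65.9 CPM (-1.50 ± 0.14, edgeR adjusted p = 1.4e-08). Txnip, an inhibitor of thioredoxin and glucose uptake, differed by -1.22 ± 0.11 (edgeR adjusted p = 3.4e-09) and Btg2, an antiproliferative adaptor, by -0.97 ± 0.11 (edgeR adjusted p = 2.59e-07).

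Promoter windows of these genes hold the letters tied to their known regulators, and a few are shown because members of the 2 cycle lists share them. The windows run from 250 bases before to 50 after the gene start (RefSeq, GRCm38.p6), and both strands were searched. The letters TTTGAA (the CHR element) occurred in 69.6% of 46 windows of G2 and mitosis genes (43 of 52 genes matched), in 9.38% of 32 windows of S phase genes (29 of 36 matched) and in 17.9% of all 32851 windows. CCAAT occurred in 76.1%, 65.6% and 37.4%, and both motifs together in 60.9% of the mitotic and 6.95% of all windows. The E2F letters TTCCCGC or TTGGCGC occurred in 56.3% of S phase, 48.0% of repair, 10.9% of mitotic and 6.81% of all windows, and the second form can share letters with CCAAT. No TTTGAA was found in 25 windows of luminal progenitor identity genes. Below, capitals mark TTTGAA and CCAAT in the first 3 sequences and the E2F letters in the last 2, on either strand (TTCAAA and ATTGG are the complements). Hmmr lies at chr11:40733388-40733687 (minus strand), Cdca3 at chr6:124829926-124830225, Ube2c, a gate gene, at chr2:164769679-164769978, Nusap1, which holds neither motif, at chr2:119618048-119618347, Cdc6 at chr11:98907901-98908200 and Uhrf1, which recruits DNA methylation to new strands, at chr17:56303087-56303386 (all plus strand). They were picked for their differences and for these letters after the values were known, and a match is a description.
Hmmr: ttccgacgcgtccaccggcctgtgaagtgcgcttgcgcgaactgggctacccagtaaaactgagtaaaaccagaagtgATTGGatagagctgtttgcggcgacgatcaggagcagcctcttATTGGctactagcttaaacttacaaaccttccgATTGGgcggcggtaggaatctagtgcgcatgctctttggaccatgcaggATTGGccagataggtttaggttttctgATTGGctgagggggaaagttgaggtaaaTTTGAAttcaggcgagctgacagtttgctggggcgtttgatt
Cdca3: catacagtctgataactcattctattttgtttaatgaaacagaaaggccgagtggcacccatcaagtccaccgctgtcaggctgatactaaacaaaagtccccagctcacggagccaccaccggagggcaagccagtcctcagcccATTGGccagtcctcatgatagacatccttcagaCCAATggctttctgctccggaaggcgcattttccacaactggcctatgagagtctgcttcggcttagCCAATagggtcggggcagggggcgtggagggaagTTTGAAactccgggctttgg
Ube2c: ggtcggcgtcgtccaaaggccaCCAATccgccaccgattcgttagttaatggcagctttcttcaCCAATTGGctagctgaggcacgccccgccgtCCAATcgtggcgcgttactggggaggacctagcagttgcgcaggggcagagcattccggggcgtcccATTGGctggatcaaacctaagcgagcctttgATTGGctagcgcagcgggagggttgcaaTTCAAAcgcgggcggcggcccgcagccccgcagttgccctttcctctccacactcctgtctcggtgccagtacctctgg
Nusap1: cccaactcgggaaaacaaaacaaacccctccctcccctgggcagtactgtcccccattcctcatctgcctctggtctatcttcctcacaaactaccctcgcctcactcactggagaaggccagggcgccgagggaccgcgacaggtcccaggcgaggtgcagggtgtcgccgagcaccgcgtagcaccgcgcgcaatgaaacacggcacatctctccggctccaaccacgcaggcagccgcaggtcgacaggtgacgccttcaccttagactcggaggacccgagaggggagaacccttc
Cdc6: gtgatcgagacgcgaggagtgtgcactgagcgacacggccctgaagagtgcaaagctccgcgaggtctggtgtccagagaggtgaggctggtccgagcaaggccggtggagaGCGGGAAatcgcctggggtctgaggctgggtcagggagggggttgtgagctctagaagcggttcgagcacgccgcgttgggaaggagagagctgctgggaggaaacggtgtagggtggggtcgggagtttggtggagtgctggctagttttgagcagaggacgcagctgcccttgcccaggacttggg
Uhrf1: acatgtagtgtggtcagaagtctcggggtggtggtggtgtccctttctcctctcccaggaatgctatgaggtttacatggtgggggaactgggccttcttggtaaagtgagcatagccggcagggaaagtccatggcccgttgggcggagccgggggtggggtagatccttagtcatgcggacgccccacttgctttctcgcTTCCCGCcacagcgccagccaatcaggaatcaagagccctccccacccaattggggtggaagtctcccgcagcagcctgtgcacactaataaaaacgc

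The sequences show the arrangement that the counts describe: Hmmr holds 1 TTTGAA with 5 CCAAT, Cdca3 1 with 3 and Ube2c 1 with 6. Nusap1, with the next largest difference after Hmmr among mitotic genes outside the rule, holds neither in this window. Cdc6 and Uhrf1 each hold 1 E2F match, and the CCAAT letters of Uhrf1 are left in lower case. Uhrf1 stood at 64.0, 73.3, 42.2 and 73.0 CPM against 5.68, 2.44, 0.784 and 4.70 CPM (4.08 ± 0.23).

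**Figure D3:**
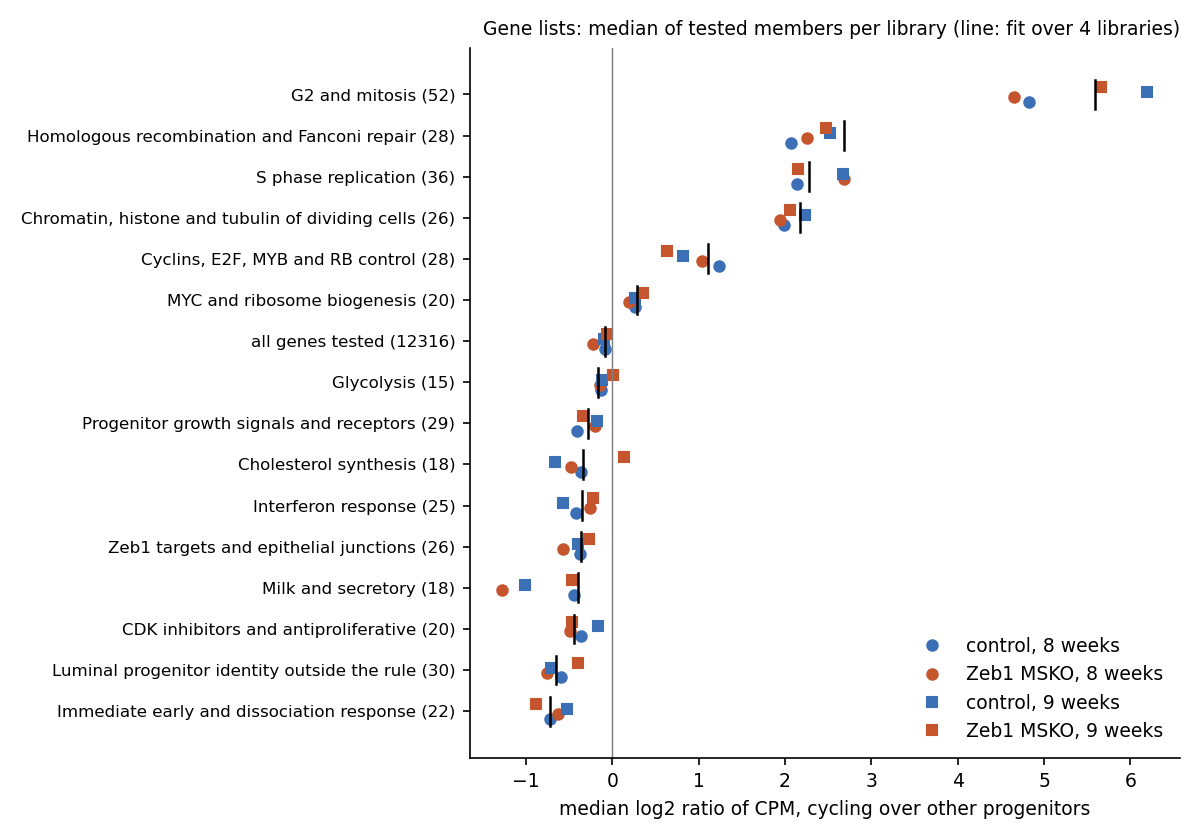
Median log2 ratio of CPM, cycling over other progenitors (horizontal axis), over the tested members of each gene list (number in brackets), with a point for each library and a black line for the median of the fit over the 4 libraries. The G2 and mitosis list (5.59) and the S phase list (2.28) lie to the right of all genes (-0.08), and progenitor identity (-0.65) and immediate early genes (-0.73) to the left in every library.

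Genes that mark the progenitor lineage made up a smaller share of the RNA of cycling progenitors. Of 30 identity genes outside the rule, 1 was called higher (3.33%) and 23 lower (76.7%), against 13.1% and 15.7% of all genes. The median was -0.65. Plet1, a surface protein of luminal progenitors, stood at 1809, 1687, 1714 and 1108 CPM against 6822, 4240.4, 4247 and 2094 CPM (-1.37 ± 0.10, edgeR adjusted p = 6.78e-11). Mfge8, the milk fat globule protein lactadherin, stood at 1597, 1669, 1000.5 and 1134 CPM against 3310.1, 3127, 3732 and 3378 CPM (-1.35 ± 0.10, edgeR adjusted p = 2.99e-10). Cldn4, a tight junction claudin, stood at 285, 525, 246 and 144 CPM against 993, 969.7, 588 and 308 CPM (-1.30 ± 0.11, edgeR adjusted p = 1.12e-09). Lcn2, the iron-scavenging lipocalin, stood at 1427, 871, 2267 and 2659.5 CPM against 3715, 2212, 4648 and 5364 CPM (-1.19 ± 0.07, edgeR adjusted p = 2.15e-12). All 4 genes were lower in each library. Itga2, an integrin subunit at 0 to 5.87 CPM, differed by -1.27 ± 0.47 (edgeR adjusted p = 0.0432). The exception was Rspo1, the Wnt amplifier that luminal progenitors secrete, at 88.1, 76.3, 22.7 and 60.2 CPM against 34.1, 57.8, 16.1 and 47.9 CPM (0.80 ± 0.16, edgeR adjusted p = 0.000406).

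Counted per cell, no identity gene was lower in every library. Of the 30, 18 had more UMIs per cell in cycling progenitors in all 4 libraries and 0 had fewer, against 66.0% and 0.650% of all genes. Plet1 averaged 35.7, 41.1, 30.2 and 19.5 UMIs per cycling cell and 56.0, 37.5, 37.7 and 17.5 per other progenitor, so its order differed between libraries. Csn3 averaged 79.2, 45.3, 108 and 93.3 UMIs against 36.5, 26.9, 53.2 and 45.5. Between cells of like depth, 19 of the 30 were still called lower by CPM (median -0.59), against 1039 of 10097 over all genes. The lineage genes of the rule itself ran from -1.53 (Trf, transferrin), -1.46 (Ltf, lactoferrin), -1.30 (Cd14, the endotoxin co-receptor) and -1.28 (Aldh1a3, a retinaldehyde dehydrogenase) through -0.62 (Kit, the stem cell factor receptor) and -0.52 (Elf5) to -0.20 (Csn3) and -0.11 (Wfdc18). Csn3 was 0.30 higher between cells of like depth, and Wfdc18 0.072 higher without TMM scaling.

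The genes with the largest drop in share were named among those outside the rule that kept 1 direction in every library. Tcp11l2 stood at 5.26, 17.6, 4.86 and 4.01 CPM against 27.2, 57.7, 38.5 and 29.5 CPM (-2.43 ± 0.21, edgeR adjusted p = 2.04e-09). Lrg1, a secreted leucine-rich glycoprotein of the acute phase, stood at 25.4, 35.2, 98.9 and 48.9 CPM against 188, 156, 410.1 and 176 CPM (-2.32 ± 0.14, edgeR adjusted p = 3.19e-12), and it also had fewer UMIs per cell (0.5, 0.857, 1.74 and 0.859 against 1.55, 1.38, 3.64 and 1.48). Cck, the peptide hormone cholecystokinin, stood at 28.5, 23.5, 48.6 and 42.5 CPM against 171, 39.6, 197 and 193 CPM (-2.26 ± 0.15, edgeR adjusted p = 1.34e-11). Its gap was narrow in the 8-week Zeb1 MSKO library. Scnn1b, a subunit of the epithelial sodium channel, differed by -2.12 ± 0.21 and Clic6, a chloride channel protein, by -1.95 ± 0.13. Rftn1, a lipid raft protein, differed by -1.89 ± 0.15, Spns3, a transporter, by -1.84 ± 0.15, Neu1, the lysosomal sialidase, by -1.78 ± 0.19 and Anxa8, an annexin, by -1.72 ± 0.20. The edgeR adjusted p of these 6 ran from 1.68e-11 (Clic6) to 2.45e-07 (Anxa8).

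**Figure D4:**
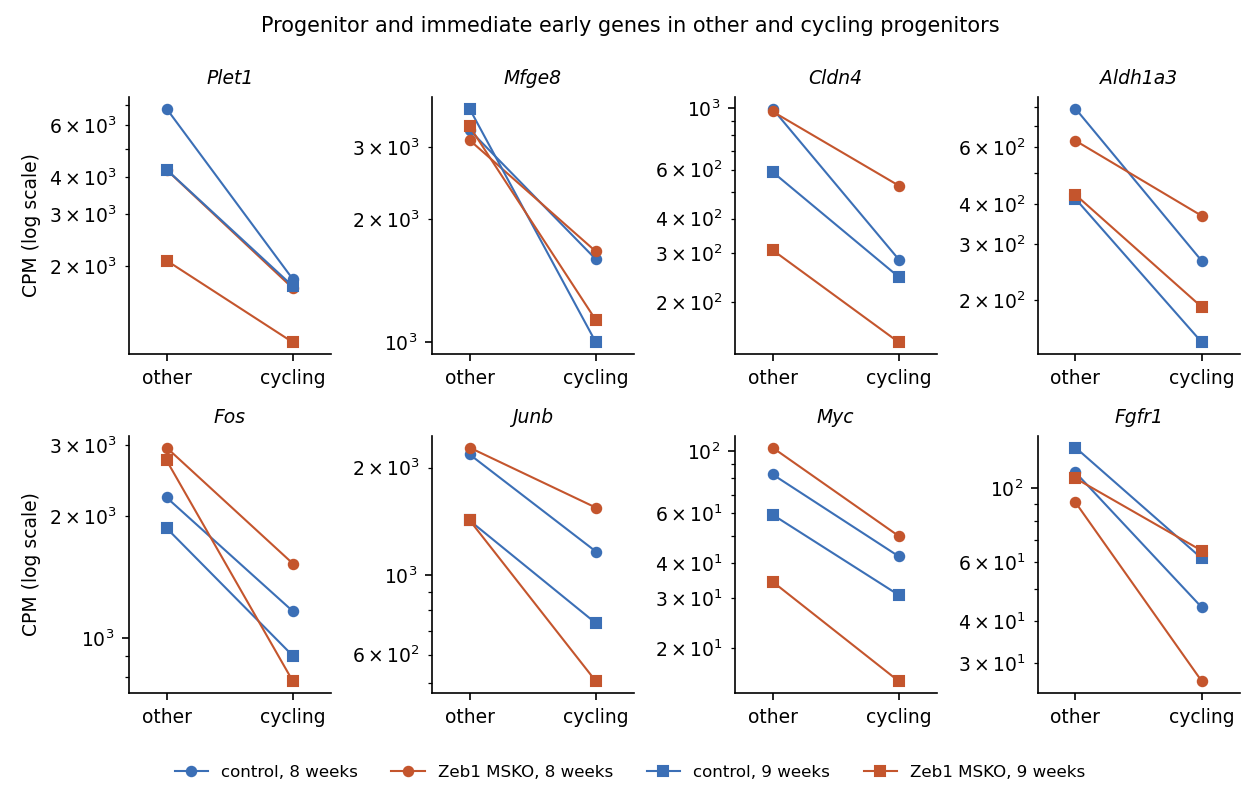
CPM (vertical log axes, 1 panel a gene) of 8 genes in other and cycling progenitors, with lines joining the 2 states of a library. Every line falls, for Plet1 in the 8-week control from 6822 to 1809 CPM.

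Milk and secretory genes were lower in part, with 4 called higher and 8 lower of 18 (22.2% and 44.4%, against 13.1% and 15.7% of all genes, median -0.39). Between cells of like depth 0 were called higher and 10 lower (median -1.04), against 1190 and 1039 of 10097 over all genes. Btn1a1, butyrophilin of the milk fat globule, stood at 10.1, 70.4, 69.7 and 40.1 CPM against 70.0, 121, 179 and 135 CPM (-1.84 ± 0.19, edgeR adjusted p = 3.39e-08). Lalba, alpha-lactalbumin, stood at 1.13, 26.4, 32.4 and 12.8 CPM against 39.7, 20.4, 201 and 150.2 CPM (-3.28 ± 0.31, edgeR adjusted p = 8.58e-09). It was lower in 3 of 4 libraries, and its 9 UMIs in the 8-week Zeb1 MSKO library came from 1 called doublet. Lalba was found in 1.85%, 7.14%, 14.3% and 7.04% of cycling progenitors and in 6.56%, 4.37%, 21.7% and 15.4% of the others, against 0.255% to 1.19% of basal cells, despite the greater depth of cycling cells. Cidea, a lipid droplet protein, stood at 1.88, 2.93, 6.49 and 5.62 CPM against 13.2, 11.8, 25 and 8.64 CPM (-2.10 ± 0.31, edgeR adjusted p = 1.06e-05). Csn2, beta-casein, went the other way (2.68 ± 0.34), but 314 of its 316 UMIs in the 9-week Zeb1 MSKO library and 41 of 41 in the 9-week control lay in 1 cell each, and between cells of like depth it was lower (-3.98).

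The immediate early and dissociation genes, which cell handling switches on, were nearly all lower in share (median -0.73). By call 20 of 22 were lower (90.9%, against 15.7% of all genes) and 0 higher (against 13.1%). Fos stood at 1165, 1528, 903 and 781 CPM against 2228, 2962, 1871 and 2754 CPM (-1.19 ± 0.10, edgeR adjusted p = 1.54e-09). Junb stood at 1165, 1546, 735 and 505 CPM against 2178, 2276, 1423 and 1426 CPM (-0.98 ± 0.10, edgeR adjusted p = 2.14e-08). Both encode parts of the AP-1 factor, and each was lower in 4 of 4 libraries. Fosl1, another AP-1 member, differed by -1.24 ± 0.17 (edgeR adjusted p = 3.74e-06) and Ier5 by -0.97 ± 0.08 (edgeR adjusted p = 4.38e-10). Per cell, 11 of the 22 (50%) had more UMIs in cycling progenitors in all 4 libraries, against 66.0% of all genes. The number with fewer was 0, against 0.650% of all genes. Between cells of like depth 17 of the 22 were called lower, against 1039 of 10097 over all genes.

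Growth signal genes and receptors were called lower at a share near that of all genes (6 of 29, 20.7%, against 15.7%). A smaller share than over all genes was called higher (1 of 29, 3.45%, against 13.1%), and the median was -0.28. Fgfr1, a fibroblast growth factor receptor, stood at 43.9, 26.4, 61.6 and 65.0 CPM against 112, 90.7, 132 and 107 CPM (-1.15 ± 0.13, edgeR adjusted p = 1.59e-07). Hbegf, an EGF receptor ligand, stood at 56.5, 26.4, 30.8 and 23.3 CPM against 114, 69.6, 87.2 and 75.5 CPM (-1.28 ± 0.13, edgeR adjusted p = 5.63e-08). Both were lower in every library. Socs3, a brake on STAT3 signalling, differed by -1.26 ± 0.16 (edgeR adjusted p = 1.25e-06) and Igf1r, the IGF1 receptor, by -0.90 ± 0.15 (edgeR adjusted p = 4.1e-05).

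Ribosome biogenesis genes were higher in part (median 0.29). By call 10 of 20 were higher (50%) and 1 lower (5%), against 13.1% and 15.7% of all genes. In all 4 libraries 19 of the 20 had more UMIs per cell, against 66.0% of all genes. Pa2g4, a growth-linked ribosome assembly factor, stood at 329, 249, 172 and 327 CPM against 205, 157, 119 and 173 CPM (0.71 ± 0.09, edgeR adjusted p = 9.81e-07). Nhp2, a protein of the H/ACA particles that modify ribosomal RNA, stood at 314, 211, 279 and 409 CPM against 220.4, 135, 167 and 259 CPM (0.63 ± 0.08, edgeR adjusted p = 2.57e-06). Dkc1, the pseudouridine synthase of those particles, differed by 0.65 ± 0.13 (edgeR adjusted p = 0.000608, 0.12 between cells of like depth). The lower gene was Myc itself, at 42.3, 49.9, 30.8 and 15.2 CPM against 82.6, 103, 59.4 and 34.4 CPM (-1.01 ± 0.13, edgeR adjusted p = 1.23e-06), lower in 4 of 4 libraries. The UMIs of Myc per cell were close in both states, at 0.833, 1.21, 0.543 and 0.268 against 0.678, 0.908, 0.527 and 0.288. Ribosomal protein genes (81) together made up 256197, 237064, 323088 and 293325 CPM of cycling progenitors and 338568, 297874, 381432 and 376021 CPM of the others, a lower share in each library.

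Metabolic and junction genes differed gene by gene. Of 15 glycolysis genes 4 were called higher and 4 lower (26.7% each, against 13.1% and 15.7% of all genes, median -0.17, and 0.0100 without TMM scaling). Between cells of like depth 4 were called higher and 1 lower, against 1190 and 1039 of 10097 over all genes. Aldoa, aldolase A, stood at 87.7, 191, 97.3 and 117 CPM against 371, 314, 326 and 321 CPM (-1.59 ± 0.14, edgeR adjusted p = 2.04e-09), while Pgk1, a later enzyme, stood at 52.6, 41.1, 9.73 and 3.21 CPM against 30.1, 27.9, 6.97 and 2.97 CPM (0.68 ± 0.17, edgeR adjusted p = 0.00371). Slc2a1, the glucose transporter GLUT1, differed by -0.65 ± 0.14 (edgeR adjusted p = 0.000773), and by -0.12 between cells of like depth (edgeR adjusted p = 0.72). Of 18 cholesterol synthesis genes 4 were called lower (22.2%, near the 15.7% of all genes) and 0 higher (against 13.1%). The median was -0.34. Msmo1, a sterol demethylating oxidase, stood at 15.2, 55.7, 17.8 and 31.3 CPM against 53.8, 98.9, 50.1 and 43.5 CPM (-1.25 ± 0.18, edgeR adjusted p = 8.59e-06). Of 26 junction genes and known ZEB1 targets 11 were called lower (42.3%, against 15.7% of all genes) and 0 higher (against 13.1%). The median was -0.36. Between cells of like depth 7 were called lower and 0 higher, against 1039 and 1190 of 10097 over all genes. Ocln, occludin, stood at 41.3, 41.1, 32.4 and 23.3 CPM against 81.8, 83.1, 58.6 and 44.1 CPM (-0.95 ± 0.13, edgeR adjusted p = 2.41e-06). Marveld3, a tight junction protein, differed by -0.97 ± 0.14 (edgeR adjusted p = 7.5e-06) and Ovol1, an epithelial transcription factor, by -0.84 ± 0.19 (edgeR adjusted p = 0.00189, 0.14 between cells of like depth).

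Interferon response genes gave different calls between all cells and between cells of like depth. Of 25, 2 were called higher (8%) and 8 lower (32%), against 13.1% and 15.7% of all genes (median -0.36). Between cells of like depth 2 were called higher and 0 lower (median -0.089), against 1190 and 1039 of 10097 over all genes. That setting held only 134, 6, 17 and 35 cycling progenitors, and the part of this smaller number was not tested. Ifit1, Ifi44 and Oasl2, antiviral effector genes at 0 to 11.4 CPM in cycling progenitors, differed by -2.36 ± 0.46, -1.42 ± 0.32 and -1.34 ± 0.28 (edgeR adjusted p = 0.000287, 0.00147 and 0.000677). Between cells of like depth the same 3 genes gave edgeR adjusted p of 0.48, 0.44 and 0.12.

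Between genotypes, no gene of the cycling progenitors was called by edgeR (0 of 7264, percent called 0.0), nor by DESeq2. At an unadjusted edgeR p under 0.05 there were 144 genes (1.98%), and 35 by DESeq2. The comparison rested on 2 libraries a genotype, and 1 of them held 14 cells. In simulated counts of this comparison, 200 of 7264 genes were changed. The test recovered 62.0% of the 200 at 4-fold, beside 12 false calls, and 0% at 2-fold, beside 1 false call. No gene was called in the other progenitors either (0 of 12950), so the genes below are values with no call in this fit. All had an edgeR adjusted p of 0.999. With the replicate number, which is the age, as a block, edgeR called 5 genes in cycling progenitors, all higher in Zeb1 MSKO. They were Id3 (edgeR adjusted p = 0.00162), Rps26-ps1 (0.00999), Timp3 and Gjb2 (each 0.0255), and Wfdc18. Wfdc18 belongs to the progenitor panel on which the cells were chosen, so its call is a description and its p is left out. The block called 16 genes in the other progenitors. With a library left out edgeR called 30 genes (without the 8-week control), 41 (without the 9-week control), 3 (without the 8-week Zeb1 MSKO) and 47 (without the 9-week Zeb1 MSKO), where a lone library is assumed to vary like the other genotype.

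Among the largest positive differences, Id3, an inhibitor of basic helix-loop-helix factors, stood at 17.7, 176, 11.4 and 40.9 CPM (14.5 ± 4.46 in control and 108 ± 95.5 in Zeb1 MSKO, SD, n = 2, log2 2.73 ± 0.66 SE, adjusted p 0.999 by edgeR). In the 8-week Zeb1 MSKO library 55 of its 60 UMIs lay in called doublets, and without doublets the difference was 2.13. Gjb2 and Gja1, the gap junction connexins, stood at 10.1, 123, 17.8 and 33.7 CPM and at 14.3, 149.6, 16.2 and 19.3 CPM (2.58 ± 0.66 and 2.39 ± 0.83). Of their UMIs in the 8-week Zeb1 MSKO library, 38 of 42 and 44 of 51 were in called doublets, and without doublets the differences were 1.22 and 0.75. Fabp5, a fatty acid-binding protein of keratinocytes, stood at 135, 587, 135 and 167 CPM (1.52 ± 0.53, and -0.19 without doublets, with 190 of 200 UMIs in doublets). These 4 genes were high in the library whose cycling cells held hair follicle keratins.

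Other positive differences were spread over both Zeb1 MSKO libraries. Timp3, a metalloproteinase inhibitor, stood at 32.3, 138, 16.2 and 42.5 CPM (1.71 ± 0.57, 1.70 without doublets and 0.68 without the 8-week Zeb1 MSKO library). Rps26-ps1, a ribosomal pseudogene whose reads cannot be told apart from those of its parent gene, stood at 77.4, 255, 50.3 and 197 CPM, and at 113, 345, 76.3 and 269 CPM in the other progenitors (1.82 ± 0.33 and 1.69). AY036118, an unnamed transcript, stood at 5.26, 14.7, 17.8 and 60.2 CPM (2.38 ± 0.69). In Timp3 and Rps26-ps1 both Zeb1 MSKO values exceeded both control values. Wfdc18 stood at 6547, 9712, 4861 and 10410.3 CPM (5704 ± 1192 in control and 10061 ± 494 in Zeb1 MSKO, SD, n = 2, log2 0.86 ± 0.26), and the same contrast gave 0.63 in the other progenitors. The cholesterol synthesis genes all had a positive sign (14 of 14, median 0.31, with 48.9% of all 7264 genes positive). The median was 0.16 without doublets and 0.24 in the other progenitors, and none of the 14 was called. Msmo1 (1.38 ± 0.42), Hmgcs1, the first committed synthase (22.9, 58.7, 17.8 and 29.7 CPM, 0.99 ± 0.43), and Mvd (0.90 ± 0.51) had the smallest p.

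Among the negative differences, Lect1, also named chondromodulin, stood at 54.3, 8.80, 38.9 and 14.4 CPM (46.6 ± 10.9 in control and 11.6 ± 3.99 in Zeb1 MSKO, SD, n = 2, log2 -1.88 ± 0.41). Fosl1 stood at 33.8, 8.80, 24.3 and 8.02 CPM (-1.85 ± 0.44), F3, tissue factor, at 137, 67.5, 144 and 60.2 CPM (-1.12 ± 0.30) and Grb7, an adaptor of growth factor receptors, at 94.6, 35.2, 60.0 and 30.5 CPM (-1.26 ± 0.36). In these 4 genes both control values exceeded both Zeb1 MSKO values. Plaur, the urokinase receptor, stood at 39.2, 20.5, 27.6 and 4.81 CPM (-1.88 ± 0.60), Zc3h12a, the ribonuclease regnase, at 46.9, 26.4, 22.7 and 8.02 CPM (-1.42 ± 0.60) and Ovol2, a repressor of mesenchymal genes and a counterpart of Zeb1, at 38.3, 26.4, 29.2 and 8.82 CPM (-1.26 ± 0.52). Plb1, a phospholipase, stood at 149, 44.0, 209 and 97.9 CPM (-1.23 ± 0.38). Dynlt1a (-1.43 ± 0.61) and H2-Q6 (-1.28 ± 0.43) have near-identical copies, so their counts are uncertain.

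The cell cycle genes showed no called genotype difference. The signs of the G2 and mitosis genes were mostly negative, 43 of 51, against 3714 of 7264 over all genes. Their median was -0.37 (-0.53 at 8 weeks and -0.35 at 9 weeks), against -0.01 over all genes. The cells were gated on mitotic genes and the libraries differed in S phase share, and the part of either in these signs was not tested. The median was -0.20 without the 8-week Zeb1 MSKO library, -0.31 without doublets, and -0.18 in the other progenitors. Cdc25c, the phosphatase that starts mitosis, stood at 24.0, 5.87, 66.5 and 18.5 CPM (-1.47 ± 0.62), Tacc3, a spindle protein, at 114, 79.2, 118 and 65.8 CPM (-0.66 ± 0.30) and Ube2s, a partner of Ube2c, at 1147, 692, 1025 and 801 CPM (-0.50 ± 0.25). In Tacc3 and Ube2s both control values exceeded both Zeb1 MSKO values. Hmgb2, a chromatin protein, stood at 1913, 1044, 1809.7 and 1327 CPM (-0.61 ± 0.26). The S phase genes had 21 positive and 15 negative signs (median 0.05, with -0.22 at 8 weeks and 0.37 at 9 weeks). Cdk2, the kinase of cyclin E, stood at 40.8, 14.7, 11.4 and 3.21 CPM (-2.22 ± 0.79), higher at 8 than at 9 weeks within each genotype, and Ccne2 differed by -1.49 ± 0.65. The remaining cyclins differed by little against their SE, from -0.64 ± 0.80 (Ccne1) and -0.52 ± 0.32 (Ccnd3) through 0.14 ± 0.34 (Ccnb1) and 0.17 ± 0.29 (Ccna2) to 0.36 ± 0.40 (Ccnd1). Ccnb2 differed by -0.47 ± 0.30, Mki67 by -0.32 ± 0.40, Top2a by -0.05 ± 0.26 and Csn3 by -0.48 ± 0.44.

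The genotype difference was then compared between cycling and other progenitors within the same libraries, by the interaction term of the edgeR model. It was called for 11 of 12316 genes (0.0893%), 10 more positive (0.0812%) and 1 more negative (0.00812%) in cycling progenitors. Without called doublets 21 were called, 7 of them the same genes. Ifi27l2a, an interferon-induced gene, had the smallest p: it stood at 31.5, 111, 45.4 and 74.6 CPM in cycling and 39.7, 27.1, 49.1 and 9.91 CPM in other progenitors (2.79 ± 0.28, edgeR adjusted p = 1.52e-08). In the controls both states lay close, and in the Zeb1 MSKO libraries the cycling value was higher. In the 8-week Zeb1 MSKO library 34 of its 38 UMIs were in 1 called doublet, and in the 9-week one 93 UMIs were spread over 13 cells with at most 28 in a cell. Without doublets the Ifi27l2a difference was 2.35 (edgeR adjusted p = 2.28e-10), and without the 8-week Zeb1 MSKO library 3.17 (edgeR adjusted p = 7.13e-23).

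Id3 stood at 17.7, 176, 11.4 and 40.9 CPM in cycling and 20.5, 43.6, 13.9 and 10.9 CPM in other progenitors (2.19 ± 0.30, edgeR adjusted p = 1.96e-05, and 1.93 with adjusted p = 0.00147 without doublets by edgeR). Its UMIs were concentrated, with 28 of 60 in 1 cell of the 8-week and 27 of 51 in 1 cell of the 9-week Zeb1 MSKO library. Cxcl2, a neutrophil chemokine, stood at 205, 276, 1.62 and 3.21 CPM against 501, 164, 13.0 and 2.66 CPM (2.04 ± 0.27, edgeR adjusted p = 1.27e-05). Its level was far higher at 8 than at 9 weeks, with 1 and 4 UMIs in the cycling progenitors at 9 weeks, and without the 8-week Zeb1 MSKO library the edgeR adjusted p was 1. S100g, the calcium-binding calbindin-D9k, stood at 8.45, 352, 32.4 and 19.3 CPM against 46.5, 153, 75.1 and 45.4 CPM (2.35 ± 0.40, edgeR adjusted p = 0.0014), with 105 of 120 UMIs in 1 cell, and without that library the S100g difference was 0.81 (edgeR adjusted p = 0.988), and without the 8-week control 1.49 (edgeR adjusted p = 0.0653). Isg15, an interferon-induced ubiquitin-like protein, stood at 12.8, 5.87, 25.9 and 69.8 CPM against 29.7, 16.9, 53.9 and 28.8 CPM (2.08 ± 0.36, edgeR adjusted p = 0.00211). Only the 9-week Zeb1 MSKO value was above that of the other progenitors, and without that library the difference was -0.36 (edgeR adjusted p = 0.976).

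**Figure D5:**
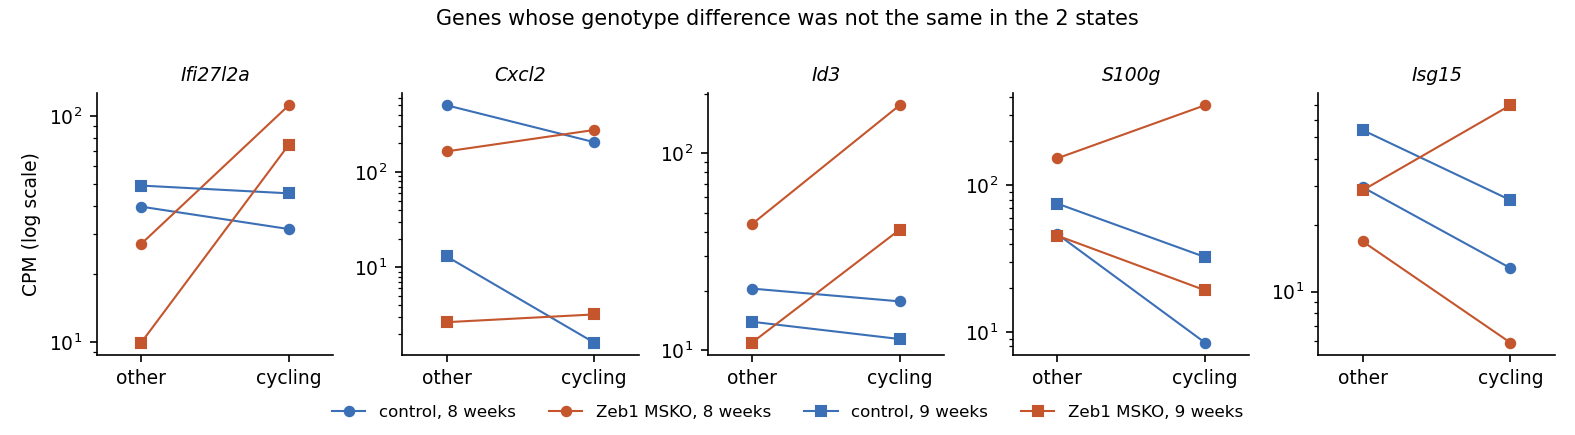
CPM (vertical log axes, 1 panel a gene) in other and cycling progenitors, joined by library, for the 5 genes with the smallest p of the difference. Ifi27l2a and Id3 are higher in cycling cells of both Zeb1 MSKO libraries and Isg15 in the 9-week one (28.8 to 69.8 CPM).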

How the data were processed

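The authors deposited 1 matrix of unnormalised UMI counts, genes by barcodes, for the 4 libraries, made with Cell Ranger 2.1.0 on mm10 per the submitters' processing notes, and its 27998 genes and 36884 barcodes were used as deposited. Barcodes were assigned to libraries by their suffix. Counts were summed per library and state (270, 14, 35 and 71 cycling cells, 5130871, 297971, 598628 and 1185989 UMIs; the other progenitors held 14640126 to 32526215 UMIs). Summed counts were tested with edgeR 4.0.16 (quasi-likelihood test, TMM scaling, filterByExpr, Benjamini-Hochberg adjustment, threshold 0.05) in R 4.3.3, with the library as a block between states and the genotype alone between genotypes. Cell scores were computed in Python 3.11.15. Doublets were scored against simulated pairs (2000 genes, 30 components, 30 neighbours, expected rate 8%), which called 2699 barcodes, and were kept in the main results. The tests were checked on simulated counts in which 200 genes, drawn from those above a limit on counts, were changed. Between states, with 12316 genes tested, 79.0% of the 200 were recovered at 2-fold, beside 22 false calls. At 4-fold 97.0% of the 200 were recovered, beside 15 false calls. Alternatives were DESeq2 1.42.0, no TMM scaling, no filter, gates of 2 and 8 UMIs, stricter progenitor limits (score 0.5, margin 0.8), cells of like depth, no doublets, a replicate block and each library left out. For the comparison of states, dropping TMM scaling was chosen after seeing the data, as was leaving libraries out of the comparison of cell classes.

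The members and gene lists were chosen with earlier results of these data known. The text names, between states, the 10 largest and 10 smallest differences among genes outside the rule that averaged 20 CPM or more and kept 1 direction in 4 libraries, and the 4 largest of each list. Between genotypes it names up to 10 genes in each direction, filled from an unadjusted p under 0.05, and the 3 smallest p of each list, and for the difference between states the 5 smallest p. Rule genes, cyclins and Zeb1 were always named. Brca1, Btg2, Txnip, Lcn2, Rspo1, Uhrf1, Pttg1 and Csn1s1 were chosen after their values were seen. Whether replicates came from separate animals is not stated, and p-values therefore reflect no more than how these libraries vary, technical variation included. Cebpd, Patj and Trac of the lists were not analysed here. Of the genes that the rule names, 2 are not reported here.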

Additional observations from a re-analysis of the deposited data

Results flagged for a closer look

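The genotype difference was larger or smaller in cycling than in other progenitors for 11 genes by the interaction term of edgeR (differences on the log2 scale, adjusted p under 0.05). The differences of the 5 genes described above were 2.79 (Ifi27l2a), 2.04 (Cxcl2), 2.19 (Id3), 2.35 (S100g) and 2.08 (Isg15). Irf7, the interferon regulatory factor, stood at 11.1, 14.7, 21.1 and 44.9 CPM in cycling and 22.5, 17.6, 49.8 and 22.6 CPM in other progenitors (1.83, edgeR adjusted p = 0.00952), and the edgeR adjusted p was 0.917 without the 9-week Zeb1 MSKO library and 0.0653 without the 8-week control. Cbr2, carbonyl reductase 2, stood at 35.1, 14.7, 35.7 and 20.1 CPM against 34.1, 29.8, 51.2 and 76.9 CPM (-1.64, edgeR adjusted p = 0.0276, 0.812 without the 9-week Zeb1 MSKO library and 1 without the 8-week control). Trim29, a basal and skin gene, differed by 3.62, with 20 of its 21 UMIs in the 8-week Zeb1 MSKO library in called doublets. Ccl21a, a lymphatic endothelial chemokine, differed by 6.0 with 9 of 10 UMIs of that library in 1 cell, and Egfl7, an endothelial gene, by 3.39 with 12 of 13 in 1 cell. Mt2, a metallothionein, differed by 1.27 with 294 of 318 UMIs of that library in called doublets. Without doublets the edgeR adjusted p of Trim29, Ccl21a, Egfl7 and Mt2 was 1. Leaving out the 8-week Zeb1 MSKO library also ended the calls of these 4 genes (edgeR adjusted p = 0.385, 1, 0.913 and 1), and leaving out the 8-week control those of Trim29, Ccl21a and Egfl7 (edgeR adjusted p = 0.675, 1 and 1).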

How the results depend on the processing

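The genotype difference of the cycling share ran from -5.46 to 0.213 percentage points with a library left out, the last without the 8-week control. Between states, 2229 genes were called between cells of like depth and 2192 to 3590 with a library left out. Genes called lower numbered 1090 by DESeq2, 1039 at like depth, 1054 without TMM scaling and 1105 to 1943 with a library left out. Between genotypes in cycling progenitors, 37 genes were called with no filter, 5 with the replicate number as a block (Id3, Timp3, Rps26-ps1, Gjb2 and Wfdc18) and 3 to 47 with a library left out, where the lone library is assumed to vary like the others. Same-numbered libraries share an age and, by the labels, nothing else, and over 12316 genes their deviations correlated at 0.106 in cycling and 0.434 in other progenitors. In other progenitors, DESeq2 called 5, no filter 73, the block 16 and leaving a library out 0 to 4. The difference between states was called for 2 genes by DESeq2, 28 with no filter, 26 under stricter limits, 21 without doublets and 23 to 63 with a library left out.

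List medians between states moved without TMM scaling to 0.10 (all genes), -0.26 (CDK inhibitors), 2.35 (chromatin), -0.47 (identity), -0.10 (growth), 0.47 (ribosome biogenesis), -0.55 (immediate early), -0.18 (interferon), 0.0100 (glycolysis) and -0.17 (junctions). At like depth they were 2.34 (chromatin), -1.04 (milk), -0.089 (interferon) and -0.072 (glycolysis). The median of all genes was -0.24 with no filter, of chromatin genes 1.97 with a gate of 2, and under stricter limits -0.84 (milk) and 0.22 (ribosome biogenesis). With a library left out the ranges were 2.19 to 2.34 (chromatin), 2.47 to 2.80 (repair) and -0.29 to -0.12 (growth). Between genotypes the mitotic median was -0.67 with a gate of 2 and -0.55 to -0.19 with a library left out, and the cholesterol median 0.62 with the block and 0.25 to 1.03.

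Of single genes between states, Ccnd2 (-1.83), Csn2 (-3.98) and Csn3 (0.30) reversed at like depth, Wfdc18 without TMM scaling (0.072), and Ccnd2 ran from -0.36 to 2.08 with a library left out. Between genotypes, Fabp5 reversed without doublets (-0.19), Ccnb1 with a gate of 2 (-0.24) and without doublets (-0.14), Ccna2 with a gate of 2 (-0.23) and Ccne1 with the block (0.12). With a library left out the ranges were -1.38 to 0.052 (Csn3), -0.20 to 0.46 (Ccnb1), -0.048 to 0.31 (Ccna2), -0.47 to 0.83 (Ccnd1), -1.23 to 3.18 (Ccne1), -0.88 to 0.15 (Mki67) and -0.18 to 0.040 (Top2a). For the difference of the genotype effect between states, Isg15 ran from -0.36 to 2.44 and Ccl21a reversed under stricter limits (-2.09) and without doublets (-2.70). The causes were not tested. The 14 cycling cells of the 8-week Zeb1 MSKO library gave 297971 UMIs. In simulated counts, 0% of 2-fold changes between genotypes were recovered in either state, and 62.0% of 4-fold changes in cycling and 65.5% in the deeper sums of other progenitors.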
